A study of Homo sapiens with 6 samples.

Results

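The genes followed here encode regulators that couple stress and nutrient supply to mTORC1, namely SESN1, SESN2, SESN3, DDIT4, DDIT4L, RRAGC, RRAGD, FLCN, FNIP1 and DEPTOR. They were taken from the deposited count table by gene symbol, and all 10 were found among its 25445 rows. RNA was sequenced from MHCC-97H, an established line of human liver cancer cells, kept for 16 h either in 10 μM 6j (a compound made from sophoridine, an alkaloid of plants) or in the solvent. Each group had 3 libraries, numbered as replicates 1 to 3, and 1 cell line gave all of them. The labels do not say whether the replicates were separate cultures, so the p-values measure the spread between these libraries, which may be technical. The labels name no gene deletion or transfection in either group.

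mTORC1 is the protein kinase complex that switches cells to growth on the surface of the lysosome when amino acids and growth factors are available. The Rag GTPases bring it there as heterodimers of RagA or RagB with RagC or RagD, and folliculin (FLCN) with its partner FNIP1 stimulates GTP hydrolysis by RagC and RagD. The sestrins hold back the Rag pathway by binding the GATOR2 complex, and SESN2 is also a sensor of leucine. REDD1, encoded by DDIT4, restrains mTORC1 through the TSC complex, and DEPTOR binds mTOR itself. SESN2 and DDIT4 are known targets of ATF4, the transcription factor of the integrated stress response, whereas RRAGC, RRAGD, FLCN and FNIP1 are known targets of the lysosomal transcription factors TFEB and TFE3.

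The total count was 31533403 to 38018349 per library. Of the 25445 rows, 15957 had enough counts to be tested. The labelled cell type was checked against 12 markers of hepatocytes and liver cancer. The keratin genes KRT8 and KRT18 were high (605 ± 77.2 and 430 ± 36.3 CPM in non-treated cells, SD, n = 3, CPM being counts scaled to a common library size, and the pair sharing exons on opposite strands), but ALB, AFP, APOA1, APOB, TTR, SERPINA1 and FGB, the defining secreted products of hepatocytes and fetal liver, had 39 counts in all over the 6 libraries, and TTR and EPCAM were at 0 in every one. The summed level of the 12 markers was 905 to 1110 CPM in non-treated and 706 to 825 CPM in 6j treated cells, and of the 3 that could be tested KRT8 had a log2 fold change of −0.58, under the fold threshold (adjusted p = 0.0211 in edgeR, the test described below). Of 10 markers of other cell types, PTPRC and CD3E were at 0 in every library, whereas the collagen genes COL1A1 and COL3A1 were at 244 and 44.3 CPM and CD68 at 51.3 CPM on average in non-treated cells, and the sum was 312 to 373 CPM in non-treated and 294 to 359 CPM in 6j treated cells. All 5 of these that could be tested had lower estimates in 6j treated cells. None was called, and ACTA2 had the smallest p (log2 fold change −0.50, adjusted p = 0.206 in edgeR). The secreted hepatocyte products were thus at or near 0 in cells labelled as liver cancer cells, and the identity of the line was not tested. The part of these marker differences in the results below was not tested.

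Of the 10 genes, 9 were detected and tested, and 6 of the 9 were called between the groups, all higher in 6j treated cells. These were RRAGD, SESN2, RRAGC, FLCN, FNIP1 and DDIT4. A gene was called at a Benjamini-Hochberg adjusted p under 0.05 in edgeR's quasi-likelihood test and a fold change above 1.5. Over all rows tested, 3.6% were called, 2.48% higher and 1.12% lower. The same 6 genes were called when the model blocked on replicate number (6.47% of all rows), by DESeq2 (3.67% called higher of the rows to which it gave an adjusted p) and at an adjusted p under 0.05 alone (9.16% of all rows). For each of the 6, every 6j treated library had a higher level than every non-treated one, as was so for 16.0% of all rows tested, and groups that did not overlap in either direction were found in 31.7%. In SESN1, SESN3 and DEPTOR the groups overlapped and no call was made, and DDIT4L had no count in any library. The median log2 fold change of the 9 genes was 0.75, against 0.0046 over all rows tested. The genes were chosen with earlier results of these libraries known.

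**Figure D1:**
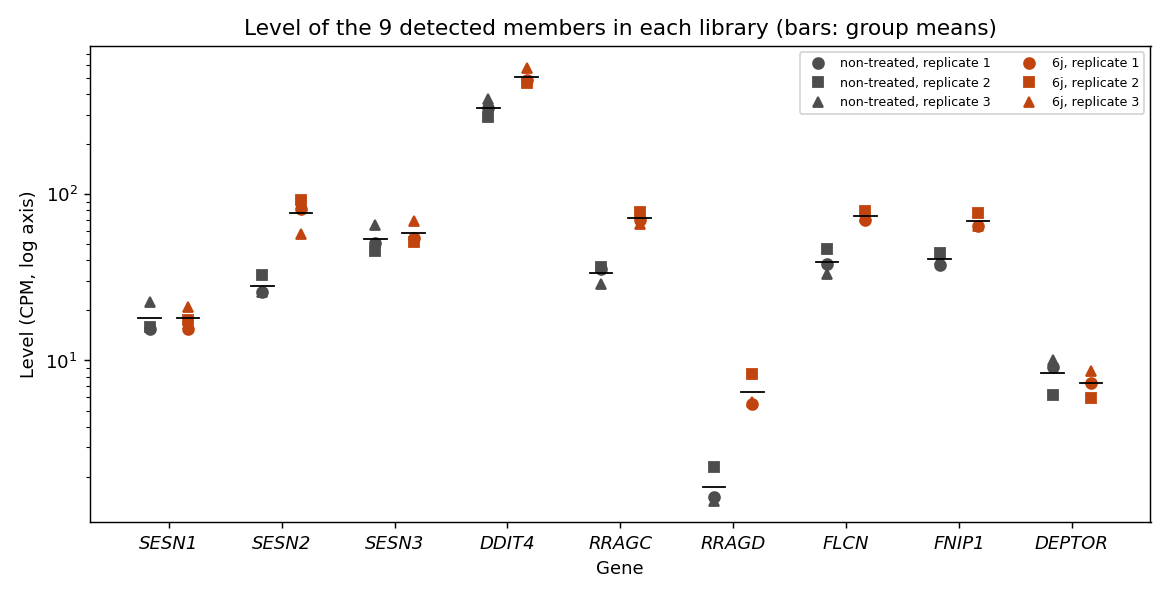
Level of the 9 detected genes in each library, in CPM on a log axis, with non-treated libraries in grey and 6j treated libraries in orange, the replicate number as the shape and the group mean as a bar. The orange symbols lie above the grey ones for SESN2, DDIT4, RRAGC, RRAGD, FLCN and FNIP1, and overlap with them for SESN1, SESN3 and DEPTOR.

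The starts of genes that rose are shown first, so that their letters can be read beside the values. RefSeq promoter windows (GRCh38.p14) were matched for 8 of the 10 genes, and RRAGD and DEPTOR were not among the 8. The 250 bases before the annotated start are given 5′ to 3′ on the gene's own strand for 4 of the genes that rose. The window of FLCN, which also rose, holds no marked letters and is not shown. Capitals mark CACGTG, the E-box that TFEB and TFE3 are among the factors known to bind, and CCAAT read on either strand, the box of the factor NF-Y.
SESN2, chr1:28259268-28259517, plus strand: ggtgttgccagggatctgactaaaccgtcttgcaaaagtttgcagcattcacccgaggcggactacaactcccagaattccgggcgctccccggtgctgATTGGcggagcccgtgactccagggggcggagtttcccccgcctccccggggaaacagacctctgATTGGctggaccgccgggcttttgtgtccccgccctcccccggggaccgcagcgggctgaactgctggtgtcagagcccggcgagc
DDIT4, chr10:72273674-72273923, plus strand: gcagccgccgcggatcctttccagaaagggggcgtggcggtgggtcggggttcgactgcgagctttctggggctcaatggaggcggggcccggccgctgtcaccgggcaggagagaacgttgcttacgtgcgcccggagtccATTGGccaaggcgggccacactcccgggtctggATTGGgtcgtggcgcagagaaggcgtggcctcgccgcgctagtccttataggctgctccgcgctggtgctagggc
RRAGC, chr1:38859773-38860022, minus strand: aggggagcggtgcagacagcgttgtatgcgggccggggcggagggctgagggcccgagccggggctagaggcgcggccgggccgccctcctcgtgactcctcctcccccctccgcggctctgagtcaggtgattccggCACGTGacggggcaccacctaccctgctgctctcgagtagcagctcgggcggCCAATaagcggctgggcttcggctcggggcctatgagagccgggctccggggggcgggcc
FNIP1, chr5:131797018-131797267, minus strand: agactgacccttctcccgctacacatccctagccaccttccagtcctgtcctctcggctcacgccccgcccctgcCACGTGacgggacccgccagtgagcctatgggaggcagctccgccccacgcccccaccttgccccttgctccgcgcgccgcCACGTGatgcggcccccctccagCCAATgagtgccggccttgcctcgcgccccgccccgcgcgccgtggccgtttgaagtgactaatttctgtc

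CACGTG was found once in the RRAGC window, 112 to 107 bases before the start, and 2 times in the FNIP1 window, at 175 to 170 and 94 to 89 bases before the start. It was not found in the windows of SESN1, SESN2, SESN3, DDIT4, DDIT4L or FLCN. Among all 35116 windows of this length in the RefSeq table, chromosome 8 included, 6.34% held it. CCAAT on either strand was found in the windows of SESN2 and DDIT4, with 2 matches each, and in those of RRAGC and FNIP1, with 1 match each, and it was held by 32.0% of all windows. The FLCN window, though this gene was called, held neither motif. SESN1, which was not called, held CCAAT in 2 of its 3 windows. The letters TGATGNAA, the core of the element to which ATF4 binds together with C/EBP proteins, were searched on both strands and found in none of these members' windows, while 3.14% of all windows held them. The 3 motifs did not overlap in the windows, they were chosen after the sequences had been seen, and a match is a description of letters and not a bound site.

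Among the sestrins, SESN2 alone was called. SESN2 (ENSG00000130766, chromosome 1, 28259527 to 28282491), whose product blocks GATOR2 when leucine is scarce, was at 25.8, 32.6 and 25.7 CPM in non-treated replicates 1, 2 and 3. It was at 81.4, 92.5 and 57.3 CPM in 6j treated replicates 1, 2 and 3. The lowest 6j treated library, replicate 3, was thus still above the highest non-treated one. The means were 28.0 ± 3.94 and 77.1 ± 18.0 CPM (SD, n = 3 each), which is 2.75-fold or 1.46 on the log2 scale (standard error, SE, 0.18, edgeR adjusted p = 0.0063). The log2 difference at the 3 replicate numbers lay between 1.16 and 1.65, and with 1 library left out the fold change stayed between 1.31 and 1.63 on the log2 scale, with a call in all 6 fits.

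SESN1 (ENSG00000080546, chromosome 6, 108986437 to 109094819) is another member of the family. Its level was 15.4, 15.9 and 22.4 CPM in non-treated and 15.4, 17.6 and 20.9 CPM in 6j treated replicates 1, 2 and 3. The groups overlapped, and in both of them replicate 3 was the highest. The change was 0.01 on the log2 scale (SE 0.17, edgeR adjusted p = 0.988). SESN3 (ENSG00000149212, chromosome 11, 95165513 to 95232541), which FoxO factors are known to induce, was at 50.6, 45.5 and 65.3 CPM in non-treated and 54.4, 51.6 and 68.8 CPM in 6j treated replicates 1, 2 and 3. The groups overlapped here too, with a log2 fold change of 0.11 (SE 0.16, edgeR adjusted p = 0.696).

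The make-up of the sestrin transcripts was compared per kilobase of merged exons, since longer genes collect more reads. The merged length joins the exons of all annotated transcripts of a gene, so levels per kb and shares depend on the annotation. Summed over SESN1, SESN2 and SESN3, the level was 16.7 ± 1.36 CPM per kb in non-treated and 31.3 ± 3.98 CPM per kb in 6j treated cells (SD, n = 3 each). SESN2 made up 49.0, 56.0 and 41.3% of this sum in non-treated and 74.3, 76.3 and 61.0% in 6j treated replicates 1, 2 and 3. The share of SESN1 was 20.8% ± 3.07 in non-treated and 11.4% ± 3.12 in 6j treated cells, and that of SESN3 was 30.4% ± 4.48 and 18.0% ± 5.26 (SD, n = 3 each).

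Whether the sestrins changed unequally was tested on the log2 CPM of one gene minus that of the other in each library. The difference SESN2 minus SESN1 was 0.74, 1.03 and 0.20 in non-treated and 2.39, 2.39 and 1.45 in 6j treated replicates 1, 2 and 3, a change of 1.42 against a pooled SD of 0.49. SESN2 minus SESN3 changed by 1.32 against a pooled SD of 0.51. For both pairs no 6j treated library overlapped with a non-treated one. The two-sided exact permutation test gave p = 0.1 for each, the smallest p that 3 libraries against 3 allow, and 0.133 after adjustment over the 4 pairs compared.

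DDIT4 (ENSG00000168209, chromosome 10, 72273920 to 72276036) was the most abundant of the 10 genes and had the smallest fold change of those called. It was at 328, 291 and 373 CPM in non-treated and 487, 467 and 578 CPM in 6j treated replicates 1, 2 and 3. In both groups replicate 2 was the lowest and replicate 3 the highest, and the groups did not overlap. The change was 0.63 on the log2 scale (SE 0.12, edgeR adjusted p = 0.0155), a 1.54-fold rise that lay just above the threshold. The difference by replicate number was 0.57, 0.68 and 0.63 on the log2 scale.

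The call of DDIT4 depended on single libraries and was kept in 2 of the 6 fits that each left out 1. The adjusted p was 0.0813 without non-treated replicate 1 and 0.0563 without 6j replicate 2, and the log2 fold change of 0.54 without non-treated replicate 2 and of 0.53 without 6j replicate 3 was under the fold threshold. In the fit with the replicate block the standard error was 0.06 and the adjusted p in edgeR 2e-05. DDIT4L, the paralogue that encodes REDD2 (ENSG00000145358, chromosome 4, 100185870 to 100190782), had 0 counts in all 6 libraries, and taking a count of 0 as up to 3 counts, its level was at most 0.0781 to 0.0952 CPM per library by counting error alone.

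Both Rag GTPase genes rose. RRAGC (ENSG00000116954, chromosome 1, 38838198 to 38859823), which encodes RagC, was at 35.4, 36.4 and 29.0 CPM in non-treated and 70.1, 78.6 and 65.8 CPM in 6j treated replicates 1, 2 and 3. Every 6j treated library was well above every non-treated one. The change was 1.09 on the log2 scale (SE 0.11, edgeR adjusted p = 0.002) or 2.13-fold, and at place 31 of 15957 in the order of p-values RRAGC stood first of the 9 genes.

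RRAGD (ENSG00000025039, chromosome 6, 89364636 to 89412270), which encodes RagD, had the largest fold change of the 9 genes and the lowest level. Its raw counts were 57, 72 and 50 in non-treated and 211, 313 and 192 in 6j treated replicates 1, 2 and 3. This corresponded to 1.51, 2.28 and 1.44 CPM and to 5.49, 8.28 and 5.59 CPM, with replicate 2 the highest in both groups and no overlap between them. The change was 1.89 on the log2 scale (SE 0.28, edgeR adjusted p = 0.0076), a 3.70-fold rise. By replicate number the difference was 1.82, 1.83 and 1.92, nearly the same value at each number.

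Per kilobase of exons, RRAGD made up 4.99% ± 0.928 of the sum of RRAGC and RRAGD in non-treated and 8.35% ± 1.20 in 6j treated cells (SD, n = 3 each). The log2 CPM of RRAGD minus that of RRAGC changed by 0.77 against a pooled SD of 0.24, and by 0.84, 0.73 and 0.74 by replicate number. The groups did not overlap (two-sided exact permutation test, p = 0.1, adjusted p = 0.133 over the 4 pairs). RRAGC thus remained the main transcript of the pair in every library, and the sum of the pair was 6.85 ± 0.843 CPM per kb in non-treated and 15.1 ± 1.55 CPM per kb in 6j treated cells (SD, n = 3 each).

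**Figure D2:**
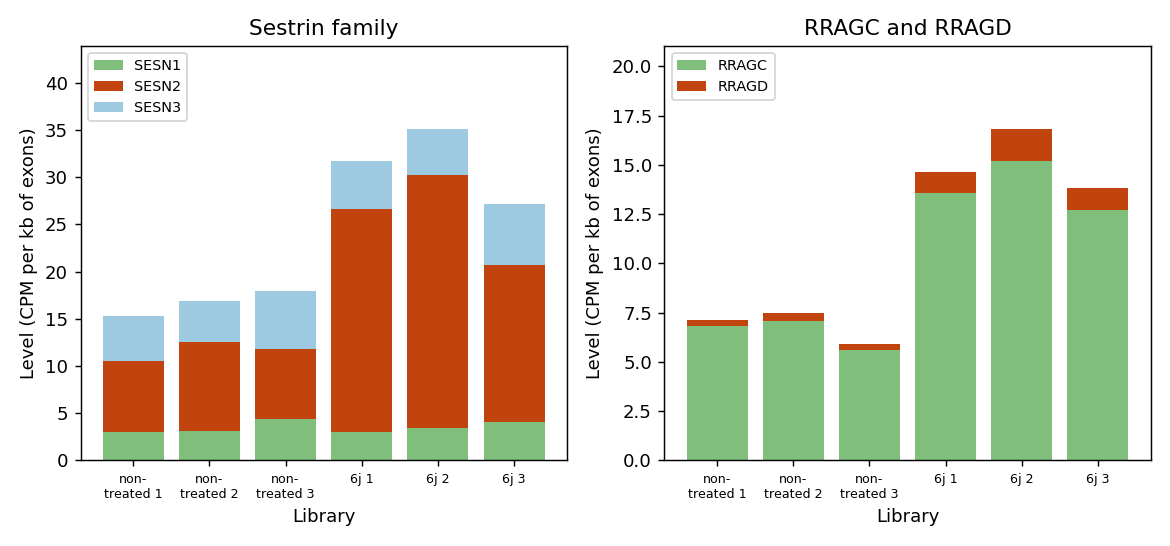
Level per kilobase of merged exons (CPM per kb) of the sestrin genes (left) and of RRAGC and RRAGD (right) in each of the 6 libraries, as stacked bars. The SESN2 part is 41.3 to 56.0% of the sestrin sum in non-treated libraries and 61.0 to 76.3% in 6j treated libraries, while the RRAGD part stays below 10% of its pair's sum in every library (9.70% at most).

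Both genes of the folliculin complex rose. FLCN (ENSG00000154803, chromosome 17, 17212212 to 17237188) encodes the subunit with the activity toward RagC and RagD, and it was at 38.3, 46.7 and 33.1 CPM in non-treated and 70.1, 79.3 and 73.1 CPM in 6j treated replicates 1, 2 and 3. All 6j treated libraries were above all non-treated ones. The change was 0.91 on the log2 scale (SE 0.13, edgeR adjusted p = 0.00649) or 1.88-fold. FLCN shares exons on its strand with AC055811.2, which had 33, 46 and 38 counts in non-treated and 87, 79 and 56 counts in 6j treated replicates 1, 2 and 3, few beside the 1153 to 2998 counts of FLCN.

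FNIP1 (ENSG00000217128, chromosome 5, 131641714 to 131797063), whose product holds folliculin in the complex and also binds AMPK, was at 37.4, 44.6 and 41.0 CPM in non-treated and 64.4, 77.2 and 64.5 CPM in 6j treated replicates 1, 2 and 3. The groups did not overlap, and replicate 2 was the highest in both. The change was 0.75 on the log2 scale (SE 0.11, edgeR adjusted p = 0.00713) or 1.68-fold. FLCN minus FNIP1 changed by 0.18 against a pooled SD of 0.15, and the difference was 0.09, −0.03 and 0.49 by replicate number (two-sided exact permutation test, p = 0.2, adjusted p = 0.2 over the 4 pairs). The annotated gene AC008695.1, with which FNIP1 shares exons, had no count in any library.

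The related gene FNIP2, not one of the 10, had a log2 fold change of 0.61 (standard error 0.18) and was not called without a block (adjusted p = 0.0725 in edgeR). It was called when the model blocked on replicate number (adjusted p = 0.00079), by DESeq2, and in the unblocked edgeR fit without non-treated replicate 2. FNIP1 made up 76.1% ± 2.99 of the FNIP1 and FNIP2 sum per kb in non-treated and 77.7% ± 1.08 in 6j treated cells (SD, n = 3 each), so the balance between the partners differed by less than the spread.

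DEPTOR (ENSG00000155792, chromosome 8, 119873717 to 120050913), which encodes an inhibitor bound to mTOR in both of its complexes, was the only one of the 9 genes with a lower estimate in 6j treated cells. It was at 9.08, 6.22 and 10.1 CPM in non-treated and 7.31, 5.92 and 8.68 CPM in 6j treated replicates 1, 2 and 3. The groups overlapped, and replicate 2 was the lowest in both. The log2 fold change of −0.21 (standard error 0.22) was not called (adjusted p = 0.598 in edgeR).

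**Figure D3:**
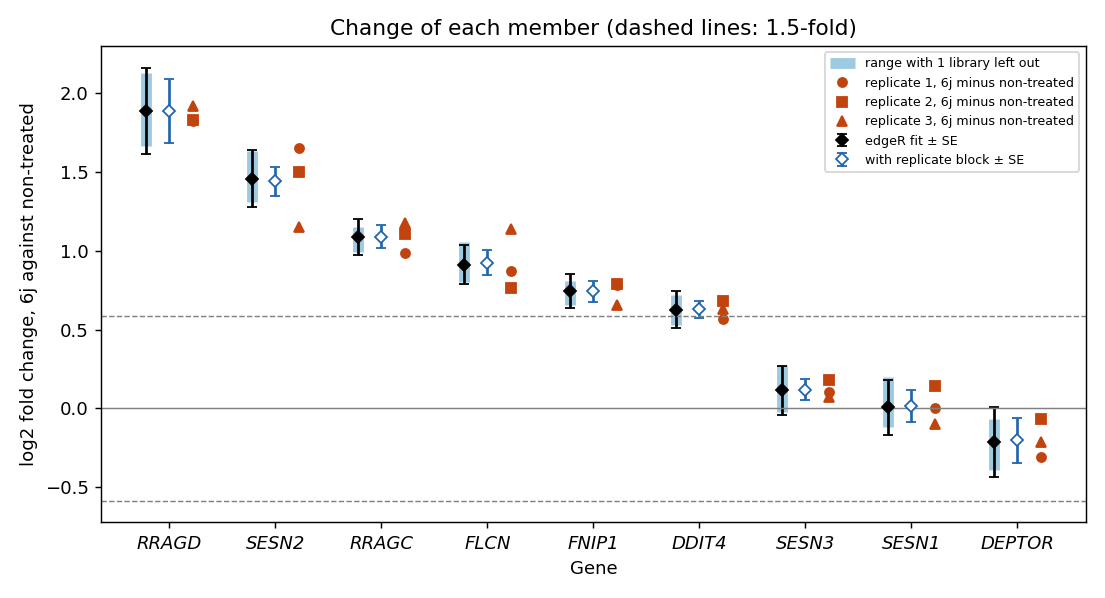
Log2 fold change of the 9 detected genes between 6j treated and non-treated cells, as the edgeR estimate with its standard error (black), the estimate with the replicate number as a block (blue), the range over the 6 fits that each left out 1 library (light blue) and the difference within each replicate number (orange). RRAGD is at 1.89 and SESN2 at 1.46, whereas SESN3, SESN1 and DEPTOR lie between 0.11 and −0.21, inside the dashed lines of a 1.5-fold change.

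The members differed widely in level, and their order per kb depends on the annotated exon lengths. Per kilobase of merged exons, DDIT4 stood at 161 ± 19.8 CPM per kb in non-treated cells, followed by SESN2 (8.12 ± 1.14), RRAGC (6.50 ± 0.778), FNIP1 (5.16 ± 0.453), SESN3 (5.09 ± 0.976), FLCN (4.02 ± 0.702), SESN1 (3.50 ± 0.757), DEPTOR (3.23 ± 0.765) and RRAGD (0.344 ± 0.0924), all as CPM per kb with SD and n = 3. From FNIP1 down to DEPTOR each gene overlapped with the next in its libraries. In 6j treated cells the order differed only in that FLCN came before SESN3, and among neighbours SESN1 and DEPTOR alone overlapped. SESN2 reached 22.3 ± 5.22 and RRAGC 13.8 ± 1.26 CPM per kb there. All levels are shares of a library, and in bulk RNA a change in the number of cells that carry a transcript and in its amount per cell cannot be told apart.

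The genes whose course over the 6 libraries was most like that of SESN2 were found by the root mean square difference of log2 CPM, each centred on its own mean, among 13358 other Ensembl genes. They were RTN4R (0.10 on the log2 scale), PHGDH, the first enzyme of serine synthesis (0.13), and SLC22A15 (0.13). Of the other members, RRAGC came at place 24 (0.24), RRAGD at 44 (0.28), FLCN at 81 (0.33) and FNIP1 at 165 (0.39), while SESN3 and SESN1 came at 6325 and 7652. The genes most like DDIT4 were INAFM1 (0.06), RSL24D1 (0.07) and SEL1L, an adaptor of ER-associated degradation (0.07), and FNIP1 at place 974 (0.23) was the closest member. These are descriptions over 6 libraries that share the treatment, with no test.

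Few genes of the rest of the mTORC1 pathway were called. Of 74 genes on 8 lists, 71 were tested, and 2 were called, both higher, which is 2.82% of the genes tested against 3.6% of all rows. Their median log2 fold change was 0.01. Both called genes encode substrates of mTORC1. EIF4EBP1, the translation repressor and a known ATF4 target, was at 83.2, 90.1 and 78.1 CPM in non-treated and 178, 168 and 139 CPM in 6j treated replicates 1, 2 and 3 (log2 fold change 0.95, SE 0.11, edgeR adjusted p = 0.00314). ULK1, the kinase that starts autophagy, was at 142, 151 and 134 CPM in non-treated and 220, 268 and 259 CPM in 6j treated replicates 1, 2 and 3 (log2 fold change 0.81, SE 0.10, edgeR adjusted p = 0.0036). For both genes the groups did not overlap and the calls were kept in all 6 fits that left out 1 library.

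None of the other lists of the pathway held a called gene in edgeR without a block, and over these lists 3 genes were higher and 1 lower at an adjusted p under 0.05 alone. The list of 10 genes of the mTOR complexes holds TELO2 and TTI1, which do not encode subunits, beside the subunit genes. On it, MTOR itself was at 181 ± 7.75 and 181 ± 11.1 CPM (SD, n = 3 each), and MLST8 had the smallest p (log2 fold change −0.23, adjusted p = 0.168). PRR5L, an mTORC2 subunit, was not called in edgeR without a block (0.61 on the log2 scale, adjusted p = 0.239) and was called in the blocked fit (adjusted p = 6.25e-05) and by DESeq2. Among 5 genes of the TSC complex and RHEB, TSC1 differed by 0.37 (adjusted p = 0.0308) and TSC2 by −0.04 (adjusted p = 0.83).

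Among the 10 partners of the Rag GTPases, the Ragulator subunit genes LAMTOR2 and LAMTOR3 differed by less than 1.5-fold and with opposite signs, with log2 fold changes of −0.45 (adjusted p = 0.019) and 0.44 (adjusted p = 0.0316). RRAGA, which encodes the RagA that pairs with RagC or RagD, was at 67.2 ± 7.37 and 71.9 ± 8.67 CPM (SD, n = 3 each, log2 fold change 0.10, adjusted p = 0.654), and RRAGB had a log2 fold change of 0.31 (adjusted p = 0.14). The GATOR1, GATOR2 and KICSTOR list, which holds the complex that SESN2 binds, had 12 genes tested with none under an adjusted p of 0.05 and NPRL2 the smallest (−0.26, adjusted p = 0.224). None of 5 amino acid sensor genes was called (LARS, 0.18, adjusted p = 0.158), nor any of 7 genes tested on the AMPK list (PRKAB2, 0.43, adjusted p = 0.0504). That list holds STK11, which does not encode a subunit, beside the AMPK subunit genes. Of 11 PI3K and AKT genes, IRS2 differed by 0.57 (adjusted p = 0.021), just under the fold threshold. All adjusted p-values in these sentences are from edgeR's quasi-likelihood test.

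**Figure D4:**
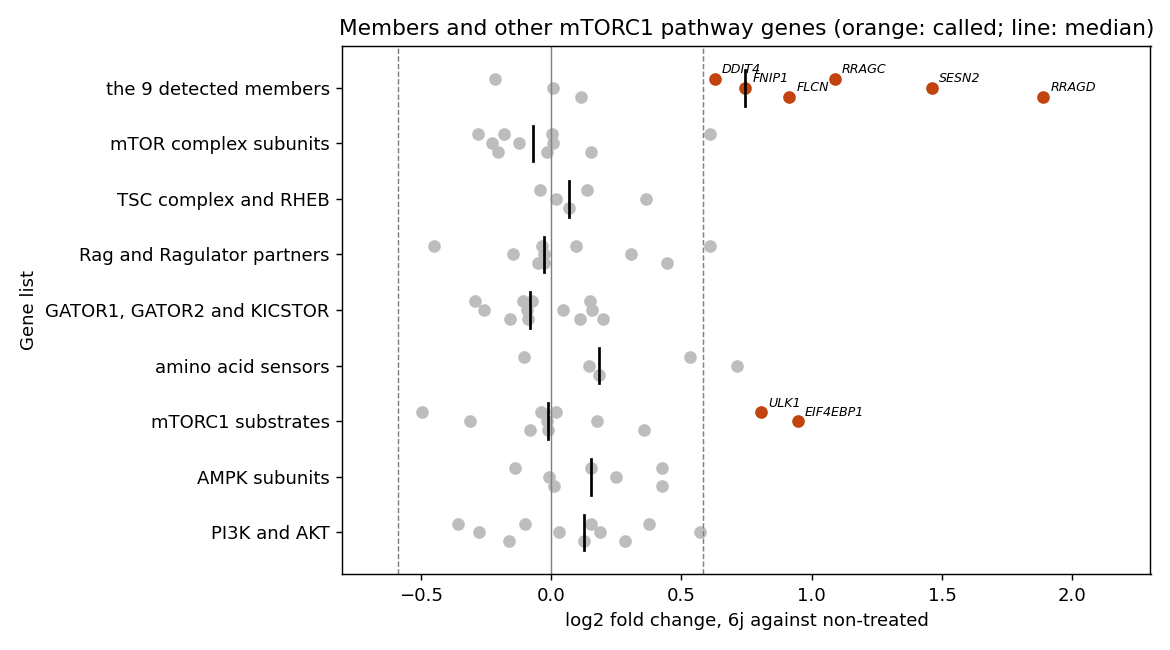
Log2 fold change between 6j treated and non-treated cells (x axis) of the 9 detected members and of the tested genes of 8 lists of the mTORC1 pathway (y axis), with called genes in orange, others in grey, medians as lines and a 1.5-fold change as dashed lines. Of the 71 pathway genes, EIF4EBP1 and ULK1 are called, which is 2.82%, against 3.6% of all rows tested. Of the 9 members, 6 are called, and members and lists were chosen with earlier results of these data known.

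Of 16 regulators known to act on these genes, 5 were called higher, namely ATF4, DDIT3, ATF3, FOXO3 and EPAS1, and none lower. ATF4 rose from 317 ± 29.8 to 680 ± 17.4 CPM and DDIT3, which encodes its partner CHOP, from 21.0 ± 4.07 to 101 ± 14.7 CPM (SD, n = 3 each). DDIT3 shares exons with AC022506.1 and, on the opposite strand, with MARS and MBD6. The genes of TFEB (log2 fold change −0.50, adjusted p = 0.127), TFE3 (0.18, adjusted p = 0.189), and MITF (0.02, adjusted p = 0.962) were not called in edgeR. TFEB was lower and TFE3 higher in every 6j treated library, with no overlap, as in 31.7% of all rows in either direction. The MITF groups overlapped. In the blocked edgeR fit the adjusted p was 0.0453 for TFEB, 0.0615 for TFE3 and 0.794 for MITF, again with no call. FOXO3 was called (0.62, adjusted p = 0.0201 in edgeR), with the call kept in 2 of the 6 fits that left out 1 library.

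Other known targets of these regulators were counted beside the members. Of 10 targets of ATF4, none of them a member, 8 were called higher with a median log2 fold change of 1.55, ASNS having the smallest p. Of 11 targets of TFEB and TFE3, 4 were members, and of the other 7, SQSTM1 and PPARGC1A were called higher, in 3 and 2 of the 6 fits that left out 1 library, and the median was 0.61. GPNMB (0.96) and FNIP2 of this list were not called over all 6 libraries without a block, and each was called in the blocked fit and in 1 of the 6 fits that left out 1 library. Of 9 hypoxia targets other than DDIT4, VEGFA alone was called (1.24, adjusted p = 0.0393 in edgeR), in 2 of the 6 fits that left out 1 library. The median of the 9 was 0.63, and the estimates of all 10 genes on the list, DDIT4 included, were higher. The groups were free of overlap in only 2 of the 10, VEGFA and DDIT4. With 1 library left out, the lowest estimates of CA9, EGLN3 and ANKRD37 were −0.07, −0.05 and −0.16. NDRG1 was at 298, 361 and 658 CPM in non-treated and 306, 595 and 1681 CPM in 6j treated replicates 1, 2 and 3. Of 5 targets of the glucocorticoid receptor other than DDIT4, TSC22D3 alone was called (1.20, adjusted p = 0.000569 in edgeR), and the median of the 5 was 0.165. Of these genes, CA9, ANKRD37, TSC22D3 and SQSTM1 share exons with genes on the opposite strand, and whether the counting used strand is not stated.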

How the data were processed

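Polyadenylated RNA was selected with oligo(dT) beads. The deposited values are raw integer counts of each gene in the 6 libraries. The submitters' processing notes name HISAT2, StringTie and GRCh38, and versions, settings and the annotation release are not given in the sources used here. Whether the counting used strand is not stated. Coordinates and merged exon lengths follow GENCODE 29 (GRCh38), which holds every one of the 19974 Ensembl identifiers, and 27 symbols that had become dates were restored from it. The 5471 new genes of the authors' assembly entered the tests. Replicates of a group differed by more than sampling noise and were counted separately.

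edgeR 4.0.16 (R 4.3.3) computed TMM factors after filterByExpr (minimum count 10, minimum total 15), and robust quasi-likelihood models with the group as the only term were fitted to all 6 libraries, with Benjamini-Hochberg adjustment over 15957 rows. Standard errors came from the F statistic. CPM were taken from TMM normalized library sizes, and log2 CPM used a prior count of 2. Differences between paralogues, and between FLCN and FNIP1, which are partners in a complex and not paralogues, were tested by exact permutation in scipy 1.17.1. The study used DESeq2, which served as an alternative (version 1.42.0), as did other normalizations, no filter, no fold threshold, a block on replicate number and omission of each library in turn. The fits were also run on simulated counts. These carried no effect of replicate number, so the run cannot show how the fit without a block handles such an effect. The floor given for DDIT4L covers counting error only, whereas the SD and SE values include the spread between libraries.

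Replicate numbers were shared by the groups, and what they mark is not stated. Deviations from the group means correlated at 0.171, 0.18 and 0.312 for libraries of the same number (−0.231 to 0.0795 for different numbers). Such deviations cancel within a group, so higher values for the same number go with lower ones for different numbers. The number served as a block in an alternative fit only, and the main calls, standard errors and permutation tests took no account of it. The members and gene lists were chosen with earlier results of these data known. Genes named are the 10 members, the called genes of the 8 mTORC1 pathway lists, the gene with the smallest p of each list, ATF4 and DDIT3, and the 3 genes most like SESN2 and DDIT4. Other genes were named after their values were seen, and 1 further regulator and its targets are not reported here.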

Additional observations from a re-analysis of the deposited data

How the results depend on the processing

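The 6 called members were the same number under upper quartile or RLE factors, in DESeq2, without a filter, without a fold threshold and with the replicate block, and 5 to 6 were called when 1 library was left out, DDIT4 being the gene lost. Most of the others were kept narrowly. Their largest adjusted p in these edgeR fits was 0.0492 for RRAGD, 0.0469 for FLCN and for FNIP1, 0.0454 for SESN2 and 0.0182 for RRAGC. The replicate block changed no call among the 9 members tested. It raised the calls over all rows from 574 to 1033 and those over the mTORC1 pathway lists from 2 to 4 (EIF4EBP1, ULK1, FNIP2 and PRR5L), and DESeq2 also called 4 pathway genes. Without a fold threshold, 1462 rows and 6 pathway genes passed. Leaving out 1 library gave 186 to 772 calls over all rows and 2 to 4 over the pathway lists, the lowest counts being 186 when non-treated replicate 1 was left out, 193 for 6j replicate 2 and 379 for non-treated replicate 3. The cause was not tested.

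The SESN1 estimate near 0 changed sign, to −0.0011 with upper quartile factors, and ranged from −0.12 to 0.20 with 1 library left out, while that of SESN3 ranged from −0.0212, without 6j replicate 3, to 0.28. With 1 library left out, the change of SESN2 minus SESN1 was 1.19 to 1.74, of SESN2 minus SESN3 1.09 to 1.64, of RRAGD minus RRAGC 0.64 to 0.91 and of FLCN minus FNIP1 0.06 to 0.25. With the replicate block, the exact sign-flip test over 3 pairs, which cannot go below 0.25, gave p = 0.25, 0.25, 0.25 and 0.5 for changes of 1.42, 1.32, 0.77 and 0.18. DDIT4 minus DDIT4L was not run, because DDIT4L had no counts. RRAGD rested on 50 to 72 counts per non-treated library, and DDIT4L, with none, could not be tested.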
